A study of Mus musculus with 18 samples.

Results

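The endoplasmic reticulum (ER) folding and unfolded protein response (UPR) genes described here are 36 mouse genes out of the 55414 genes in the count table. They were listed by name and role, with no measured value in the rule but with earlier results of these data known: 9 chaperones and co-chaperones, 2 lectin chaperones, 6 disulfide enzymes, 4 sensors and transcription factors, 8 genes of ER-associated degradation (ERAD) and 7 translocon genes. All 36 passed the filter on low counts, and the least counted, *Derl3*, still had 15 to 56 reads per library.

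The counts came from N2A cells, an established mouse neuroblastoma line, harvested as whole cell extract 72 h after transfection with an siRNA and sequenced as rRNA-depleted total RNA. Scramble KD cells received a control siRNA with no intended target, *Fmr1* KD cells an siRNA against the mRNA of FMRP, the Fragile X protein, and *Zfp598* KD cells an siRNA against the mRNA of ZNF598, an E3 ligase that detects collided ribosomes. Each condition used 2 siRNAs, A and B, and each siRNA 3 libraries, which gives 6 libraries per condition and 18 in all. The study asked which transcripts rise in both knockdowns. The model has limits: each KD is partial and rests on 2 siRNA sequences in 1 cell line. No untransfected or drug-stressed cells were analysed here. The letters A and B only name the siRNAs, so an *Fmr1* and a Scramble siRNA with the same letter share nothing else that the labels state. The 3 libraries of an siRNA are replicate knockdowns, and their spread does not include the spread between siRNA sequences.

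Proteins that enter the secretory pathway are threaded into the ER by the translocon, folded by chaperones such as BiP and by lectin chaperones that hold sugar-bearing chains, and linked by disulfide bonds made by protein disulfide isomerases and their oxidases. When unfolded chains build up, the sensors IRE1, ATF6 and PERK start the UPR: IRE1 splices *Xbp1* mRNA, ATF6 is cleaved to a transcription factor, and PERK slows translation and favours ATF4. XBP1 and cleaved ATF6 raise transcription of chaperone and ERAD genes, and ERAD returns misfolded chains to the cytosol for degradation. Gene counts report the amount of mRNA only and cannot show *Xbp1* splicing, ATF6 cleavage or kinase activity.

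The libraries held 7674724 to 15414590 counted reads, and CPM below means counts per 1000000 of the library size after TMM scaling. *Fmr1* stood at 51.1 to 68.7 CPM (median 60.5) in Scramble KD and 15.7 to 27.5 CPM (median 23.6) in *Fmr1* KD (log2 fold change -1.43 ± 0.14 SE, adjusted p = 1.26e-05), and *Zfp598* at 103 to 128 CPM (median 119) and 32.2 to 48.7 CPM (median 40.99) in Scramble KD and *Zfp598* KD (log2 fold change -1.53 ± 0.10 SE, adjusted p = 1.17e-08), so both targets were lower in every library of their own KD. Some libraries stood apart. In *Fmr1* KD replicate B1, 8 of 10 pluripotent stem cell markers were above every other library (31.4 CPM summed, against at most 1.33 in the other 17), and in *Zfp598* KD replicates A2 and A3 a single feature took 15.2% and 25.8% of reads, against 5.00% to 11.1% in Scramble KD. Of 13 neuronal and neuroblastoma markers, *Tubb3*, *Ncam1*, *Stmn2* and *Chgb* were among the highest and *Nefl* and *Nefm* were at or near 0. The summed level of the 13 was 1888 to 2182 CPM with Scramble siRNA A, 1293 to 1384 with Scramble siRNA B, 1438 to 1659 with the *Fmr1* siRNAs and 1542 to 1821 with those against *Zfp598*. Of 6 fibroblast markers 4 had a higher mean in *Fmr1* KD (12.1 to 19.0 CPM summed, against 6.46 to 11.1 in Scramble KD), of 4 epithelial markers 4 (3.92 to 10.1 against 1.79 to 4.18) and of 5 immune markers 1 (1.26 to 2.77 against 1.31 to 2.41), with *Lum* at 0 in all 18 libraries. The epithelial sum of 10.1 was that of replicate B1, where *Cdh1* had 6.07 CPM, and the next *Fmr1* KD library had 4.62. Median levels were under 1 CPM for 4 of the fibroblast, 3 of the epithelial and 5 of the immune markers. The 10 pluripotent markers, whose level is mostly *Lin28a*, summed to 131.7 to 196 CPM in *Fmr1* KD and 78.3 to 149 in Scramble KD. In *Zfp598* KD the 4 lists summed to 9.10 to 18.9 (fibroblast), 1.52 to 6.19 (epithelial), 0.960 to 3.36 (immune) and 121 to 184 CPM (pluripotent). Whether these marker levels have a part in the ER gene results was not tested, and in bulk RNA fewer cells of a kind and less RNA per cell cannot be told apart.

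Part of the group shares a promoter sequence. The ER stress response element, the letters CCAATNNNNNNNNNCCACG, is known as the site that NF-Y and cleaved ATF6 occupy in front of chaperone genes. It was searched on both strands from 250 bases before to 50 bases after each RefSeq transcription start (windows made on GRCm38.p6, with the stretches then located by exact match on GRCm39). It occurred in 39 of 32851 windows (0.119%), which belong to 37 of 27025 gene symbols (0.137%). Of the 36 ER genes 30 had a window, and 10 of these 30 held the element: *Hspa5*, *Hsp90b1*, *Dnajc3*, *Creld2*, *Calr*, *Canx*, *Pdia6*, *Ero1b*, *Syvn1* and *Derl3*. The stretches of the 6 that fell in *Fmr1* KD are printed 5′ to 3′ on the gene's strand, with the outer letters of the element, or of its reverse complement CGTGG and ATTGG, in capitals and 5 bases of flank on each side.
*Hspa5*, chr2:34662032-34662060, plus strand: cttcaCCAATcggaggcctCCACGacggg
*Hsp90b1* element 1, chr10:86541497-86541525, minus strand: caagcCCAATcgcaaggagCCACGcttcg
*Hsp90b1* element 2, chr10:86541392-86541420, minus strand: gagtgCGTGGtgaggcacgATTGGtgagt
*Dnajc3*, chr14:119175234-119175262, plus strand: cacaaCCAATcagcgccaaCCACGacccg
*Calr*, chr8:85573699-85573727, minus strand: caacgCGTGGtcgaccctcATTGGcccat
*Canx*, chr11:50216622-50216650, minus strand: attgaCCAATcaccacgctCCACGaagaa
*Pdia6*, chr12:17316487-17316515, plus strand: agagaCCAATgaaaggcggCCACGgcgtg
The element began 65 bases before the RefSeq start of *Hspa5*, 212 and 107 bases before that of *Hsp90b1*, and 98 to 162 bases before those of the other 4. For these first 2 genes the GENCODE bounds reach farther upstream than the RefSeq start and take in the *Hspa5* stretch and *Hsp90b1* element 2. Of the 10 ER genes with the element 6 fell in *Fmr1* KD, with a median log2 fold change of -0.54 over the 10, where 3.8% of all genes tested fell. Of the 20 with a window and no element 8 fell, with a median of -0.27. Outside the group, 13 further genes with the element were tested, of which 3 fell (*Pan2*, *Hnrnpa3* and *Xlr3a*, the last of a multicopy family whose reads may be shared) and 0 rose, with a median of -0.04. A match describes the letters in the window, not a site in use in these cells.

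Levels within the group differed widely. Per kilobase of exon, *P4hb* led in Scramble KD at 145 ± 13.95 CPM per kb (SD, n = 6), followed by *Hspa5* at 141 ± 32.7, *Canx* at 115 ± 6.499 and *Calr* at 104 ± 12.8. The leading pair differed by less than the spread between libraries. At the other end stood *Ero1b* at 1.88 ± 0.558 and *Derl3* at 1.35 ± 0.284 CPM per kb.

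**Figure D1:**
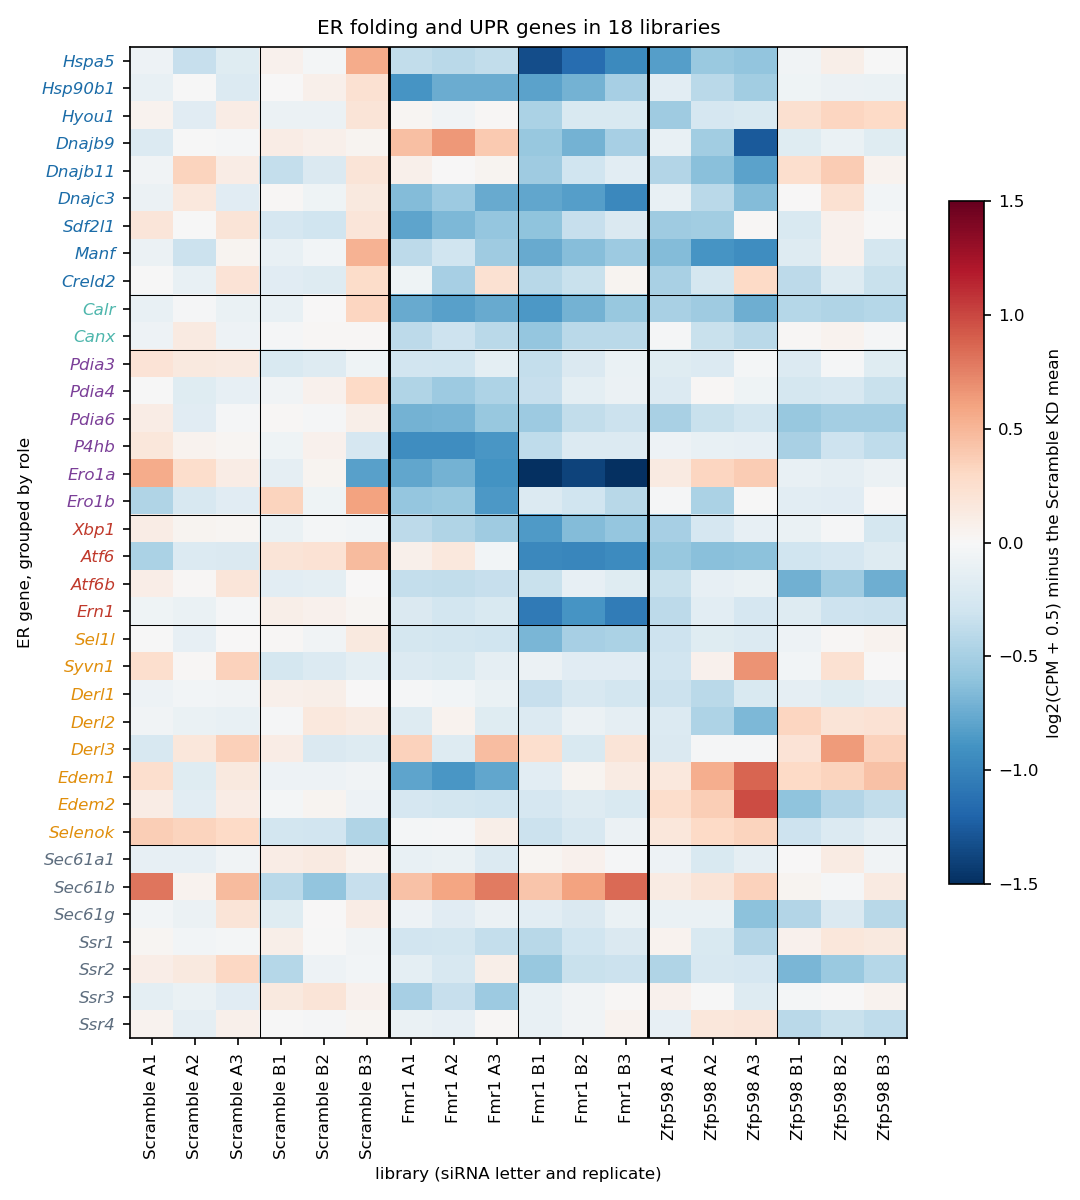
Each cell is the log2(CPM + 0.5) of a gene in a library minus the gene's mean over the 6 Scramble KD libraries, from blue (lower) to red (higher), with genes in rows coloured by role and libraries in columns. Most rows from *Hspa5* to *Xbp1* are blue across the 6 *Fmr1* KD columns, *Hspa5*, *Atf6* and *Ern1* are darkest with *Fmr1* siRNA B, and *P4hb* and *Edem1* with *Fmr1* siRNA A.

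In *Fmr1* KD, 15 of the 36 ER genes fell and 0 rose at an adjusted p under 0.05. Over all 17901 genes tested, 3.8% fell and 2.73% rose by the same rule. The gene closest to a rise was *Sec61b*, with the only unadjusted p under 0.05 among positive values, and DESeq2 called it higher beside 16 lower. The median log2 fold change of the ER genes was -0.30, against 0.00 over all genes, and 33 of 36 had a value below 0. The genes that fell were 5 of 9 chaperones, both lectin chaperones, 4 of 6 disulfide enzymes and 2 of 4 sensors and transcription factors, but 1 of 8 ERAD genes and 1 of 7 translocon genes. The falls were mostly moderate: only *Ero1a* passed the 2-fold criterion that the study used, which 0.335% of all genes passed downward. In 11 ER genes the 6 *Fmr1* KD libraries were separated downward from the 6 Scramble KD libraries, as in 3.51% of all genes tested. Such separation fixes the p of the two-sided exact permutation test over every split of the 12 libraries at its smallest value, 0.00216. The test therefore adds nothing to the separation for these genes, and it counts the 6 libraries of a condition as replicates.

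The 15 calls treat the 6 libraries of a condition as replicates. When the 3 libraries of each siRNA were summed, which leaves 2 values per condition, 0 of the 36 were called by edgeR and 11 had an unadjusted p under 0.05, with the median log2 fold change at -0.31. Leaving out Scramble KD replicate B3 left 10 calls: *Hspa5* (adjusted p = 0.0714), *Sdf2l1* (0.0558), *Manf* (0.130), *Pdia4* (0.123) and *Ssr1* (0.0754) no longer passed. Over the 18 fits that each left out a library, *Ssr1* lost its call in 16 (highest adjusted p = 0.1097), *Manf* in 12 (0.1302) and *Pdia4* in 12 (0.1234). *Hspa5* lost it in 5, without Scramble KD B1 or B3 or any library of *Fmr1* siRNA B (0.051 to 0.0714), and *Sdf2l1* in 4, without Scramble KD B3 or any library of *Fmr1* siRNA A (0.0513 to 0.0619). The other 10 were called in each of these fits. Without Scramble KD replicate A1, *Ero1b* was called lower (adjusted p = 0.0283) and *Sec61b* higher (0.00894).

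**Figure D2:**
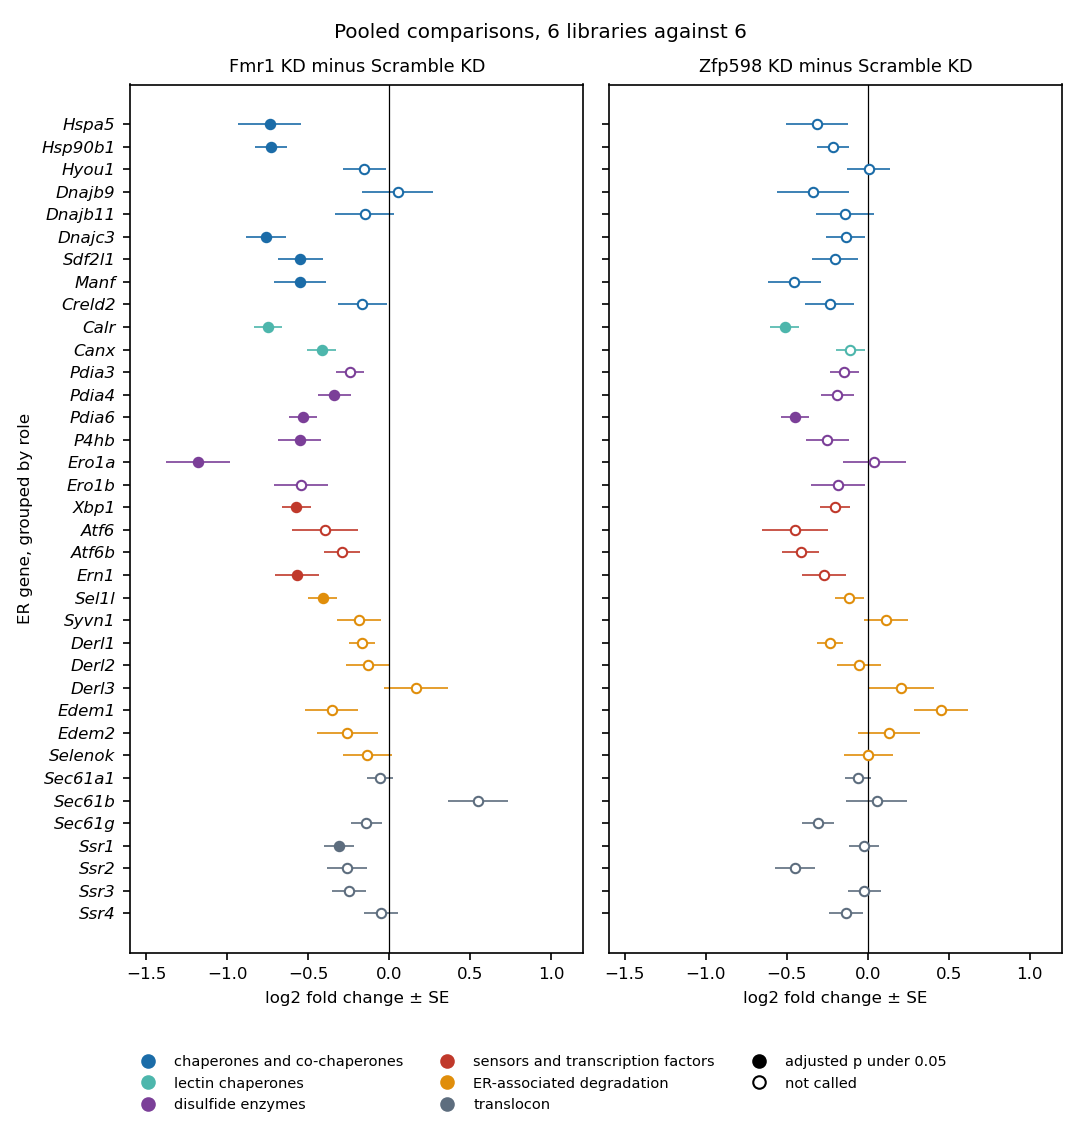
Points are log2 fold changes against Scramble KD and bars their standard errors, for *Fmr1* KD on the left and *Zfp598* KD on the right, 6 libraries against 6; filled points had an adjusted p under 0.05 and colours give the role. On the left 15 points are filled, all below 0, with *Ero1a* at -1.18 farthest out; on the right 2 are filled, *Calr* at -0.51 and *Pdia6* at -0.45.

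Among the chaperones, *Hsp90b1* (ENSMUSG00000020048, chr10:86526073-86541446, minus strand, all gene coordinates on GRCm39) encodes GRP94, the HSP90 chaperone of the ER. It stood at 464 to 626 CPM (median 535) in Scramble KD and 288 to 377 CPM (median 319) in *Fmr1* KD. The highest *Fmr1* KD library stayed under the lowest Scramble KD library (log2 fold change -0.73 ± 0.10 SE, adjusted p = 0.000201), and the log2 fold change was -0.69 ± 0.10 with *Fmr1* siRNA A and -0.77 ± 0.10 with B. The difference between these effects was log2 fold change -0.08 ± 0.14 SE, adjusted p = 0.744. The *Zfp598* KD libraries, at 373 to 512 CPM (median 489.8), overlapped Scramble KD (log2 fold change -0.21 ± 0.10 SE, adjusted p = 0.249). *Dnajc3* (ENSMUSG00000022136, chr14:119175317-119219115, plus strand), which encodes the BiP co-chaperone and kinase inhibitor p58IPK, was also lower. Its level was 33.9, 36.6 and 31.5 CPM with *Fmr1* siRNA A and 31.1, 29.96 and 27.2 with siRNA B, below the 47.6 to 59.9 CPM (median 52.7) of Scramble KD without overlap (log2 fold change -0.76 ± 0.12 SE, adjusted p = 0.000921). In *Zfp598* KD it spread from 33.98 to 62.99 CPM, around the Scramble KD values.

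*Hspa5* (ENSMUSG00000026864, chr2:34661982-34668880, plus strand) encodes BiP, the HSP70 chaperone that also holds the UPR sensors inactive. In the 3 libraries of each siRNA it stood at 730.5, 605 and 678 CPM with Scramble siRNA A, 803, 751 and 1127 with Scramble siRNA B, 593, 578 and 593 with *Fmr1* siRNA A and 305, 348 and 395 with *Fmr1* siRNA B. Every *Fmr1* KD library was below every Scramble KD library, but the *Fmr1* siRNA A libraries ended just under the lowest of these, while siRNA B brought the level far lower. Against the same-letter Scramble siRNA the log2 fold change was -0.19 ± 0.13 with A (adjusted p = 0.316) and -1.35 ± 0.13 with B (adjusted p = 2.12e-07), and these 2 effects differed (log2 fold change -1.16 ± 0.18 SE, adjusted p = 7.36e-05). The 2 Scramble siRNAs differed too (0.41 ± 0.13, adjusted p = 0.0246). The choice of control moved these values: against all 6 Scramble KD libraries the log2 fold change was -0.39 with *Fmr1* siRNA A (adjusted p = 0.0105), -1.15 with *Fmr1* siRNA B (5.95e-07) and -0.67 with *Zfp598* siRNA A (0.000713). Pooled, *Hspa5* had a log2 fold change of -0.74 ± 0.19 (adjusted p = 0.0246). With the *Zfp598* siRNAs it stood at 433, 523 and 509.7 CPM (A) and 737, 816 and 763 CPM (B), lower than Scramble siRNA A with siRNA A (-0.47 ± 0.13, adjusted p = 0.0212) and not called with siRNA B (-0.21 ± 0.13). Of the exonic bases of *Hspa5*, 44.2% overlap the antisense gene *Rabepk*, which averaged 250.4 reads against 8349 for *Hspa5*, and the strand setting of the counting is not given in the sources used here.

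The small chaperone partners were more mixed. *Sdf2l1*, a BiP cofactor, and *Manf*, a secreted ER protein that binds BiP, fell in *Fmr1* KD (-0.55 ± 0.14, adjusted p = 0.0223, and -0.55 ± 0.16, adjusted p = 0.0460). *Sdf2l1* was lower with *Fmr1* siRNA A (-0.82) and *Manf* with siRNA B (-0.81), and neither difference between the siRNAs passed (adjusted p = 0.0857 and 0.0850). *Manf* also shares 32.6% of its exonic bases with the same-strand gene *Rbm15b*, so part of its count may belong to that gene. *Dnajb9*, the BiP co-chaperone ERdj4, moved in opposite directions with the *Fmr1* siRNAs: 37.2 to 44.6 CPM over the 3 libraries of siRNA A, above all 6 Scramble KD libraries, and 18.9, 17.1 and 19.9 with siRNA B, below all 6. Scramble KD stood at 24.6 to 30.5 CPM (median 28.7). The pooled value was 0.05 ± 0.22. *Dnajb11* (ERdj3), *Hyou1* (GRP170, a nucleotide exchange factor of BiP) and *Creld2* were not called in pooled *Fmr1* KD, at -0.15, -0.15 and -0.17.

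Of the lectin chaperones, *Calr* (ENSMUSG00000003814, chr8:85567946-85573667, minus strand) encodes calreticulin and was lower in both knockdowns. It stood at 367 to 493 CPM (median 379) in Scramble KD. *Fmr1* KD brought it to 217 to 267 CPM (median 234) and *Zfp598* KD to 237 to 294 CPM (median 286). No library of either KD reached the lowest Scramble KD library. The log2 fold change was -0.75 ± 0.09 in *Fmr1* KD (adjusted p = 5.56e-05) and -0.51 ± 0.09 after *Zfp598* KD (adjusted p = 0.00596). The siRNAs of a target gave close values, -0.70 and -0.79 for *Fmr1*, -0.51 and -0.52 for *Zfp598*. *Canx* (ENSMUSG00000020368, chr11:50183939-50216529, minus strand), the membrane-bound counterpart calnexin, fell in *Fmr1* KD from 872 ± 49.5 CPM (SD, n = 6) to 654 ± 38.3 CPM (log2 fold change -0.42 ± 0.09 SE, adjusted p = 0.00804). In *Zfp598* KD it averaged 809.6 ± 106 CPM, overlapping Scramble KD (log2 fold change -0.11 ± 0.09 SE, adjusted p = 0.567).

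Among the disulfide enzymes, *Ero1a* (ENSMUSG00000021831, chr14:45520541-45556228, minus strand), the oxidase that re-oxidises protein disulfide isomerase, had the largest pooled change of the group. Its level was 598, 489 and 439 CPM with Scramble siRNA A and 370.2, 419 and 231 with Scramble siRNA B, 238, 249 and 219 with *Fmr1* siRNA A and 120.3, 155 and 143 with *Fmr1* siRNA B. With the *Zfp598* siRNAs it was 446, 509 and 529.6 (A) and 379, 372 and 383 (B). The *Fmr1* KD libraries were the lowest apart from Scramble KD replicate B3, at 231 CPM, which fell among those of siRNA A. The log2 fold change was -1.18 ± 0.20 in *Fmr1* KD (adjusted p = 0.00123) but 0.04 ± 0.19 after *Zfp598* KD (adjusted p = 0.937). *Ero1a* also differed between the Scramble siRNAs (-0.59 ± 0.15, adjusted p = 0.00919), and each *Fmr1* siRNA lowered it against the same-letter control, with log2 fold changes of -1.11 (A) and -1.28 (B). Its paralog *Ero1b*, present at 12.6 CPM in the median Scramble KD library, was not called (log2 fold change -0.54 ± 0.17 SE, adjusted p = 0.0553).

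*Pdia6* (ENSMUSG00000020571, chr12:17316533-17335913, plus strand), a protein disulfide isomerase, was the other ER gene lower in both pooled comparisons. It stood at 191 to 232 CPM (median 214) in Scramble KD, and *Fmr1* KD moved it to 131 to 171 CPM (median 146) and *Zfp598* KD to 145 to 178 CPM (median 152). Scramble KD overlapped neither KD. The log2 fold changes were -0.53 ± 0.09 (adjusted p = 0.000948) and -0.45 ± 0.09 (adjusted p = 0.0122), and all 4 siRNAs of the targets lowered it against the same-letter Scramble siRNA. *Pdia4* (ENSMUSG00000025823, chr6:47770077-47790462, minus strand; ERp72) fell in *Fmr1* KD from 141 ± 17.6 CPM to 111 ± 14.7 CPM (log2 fold change -0.34 ± 0.10 SE, adjusted p = 0.0462), with some overlap between the libraries. *P4hb* (ENSMUSG00000025130, chr11:120451122-120464538, minus strand), the founding protein disulfide isomerase PDI, was lower mainly with *Fmr1* siRNA A: 283, 283 and 294 CPM, against 414, 468 and 467 with *Fmr1* siRNA B and 453 to 605 CPM (median 552) in Scramble KD. The siRNA B libraries overlapped the controls, and the effects of the 2 siRNAs differed (log2 fold change 0.81 ± 0.12 SE, adjusted p = 4.03e-05). With all 6 Scramble KD libraries as the control, siRNA B was called as well (-0.26, adjusted p = 0.0155), beside siRNA A (-0.91, adjusted p = 2.77e-08). *Pdia3* (ERp57), the isomerase that works with calreticulin and calnexin, was not called in either pooled comparison (-0.24 and -0.14).

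**Figure D3:**
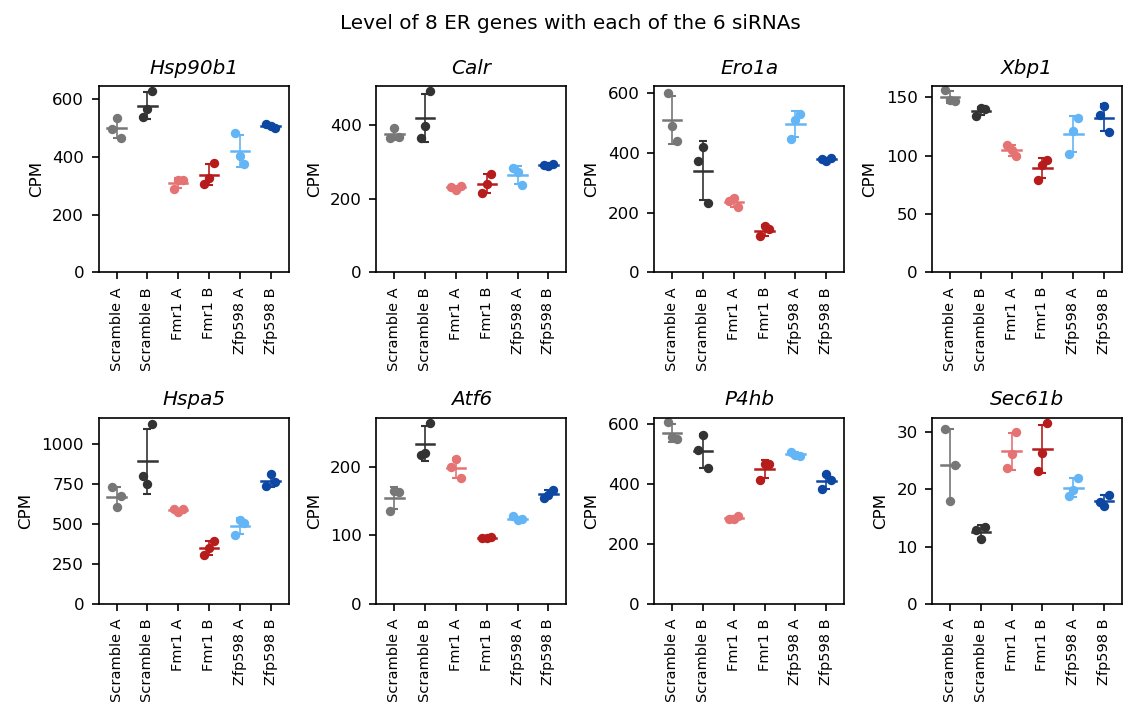
Points are CPM in each library, horizontal lines the mean of the 3 libraries of an siRNA and bars the SD, for 8 ER genes, with all axes from 0. *Hsp90b1*, *Calr*, *Ero1a* and *Xbp1* are lower with each *Fmr1* siRNA than with the same-letter Scramble siRNA, *Hspa5* and *Atf6* are lowest with *Fmr1* siRNA B, *P4hb* with *Fmr1* siRNA A, and *Sec61b* with Scramble siRNA B.

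Among the sensors and transcription factors, *Xbp1* (ENSMUSG00000020484, chr11:5470606-5483027, plus strand) stood at 156, 148 and 147 CPM (A) and 134, 141 and 139.6 CPM (B) with the Scramble siRNAs. With the *Fmr1* siRNAs it was 109, 105 and 99.5 CPM (A) and 79.5, 91.9 and 95.9 CPM (B). The *Fmr1* KD libraries were all lower (log2 fold change -0.57 ± 0.09 SE, adjusted p = 0.000841). The log2 fold change was -0.52 with siRNA A and -0.63 with siRNA B. After *Zfp598* KD, *Xbp1* was at 102 to 143 CPM (median 127) and not called (-0.20 ± 0.09, adjusted p = 0.246). Its exons share 22.0% of their bases with the antisense gene *Ccdc117*. *Ern1* (ENSMUSG00000020715, chr11:106283818-106378686, minus strand), which encodes IRE1α, stood at 166, 159 and 165 CPM with *Fmr1* siRNA A and 92.5, 104 and 93.03 with siRNA B, all below the 180.2 to 205 CPM (median 194) of Scramble KD. The pooled call (log2 fold change -0.57 ± 0.14 SE, adjusted p = 0.0146) rested mostly on siRNA B (-1.06 ± 0.08). Against the same-letter Scramble siRNA, siRNA A alone was not called (-0.18 ± 0.08, adjusted p = 0.114), and the effects of the 2 siRNAs differed (log2 fold change -0.88 ± 0.11 SE, adjusted p = 6.82e-06). With all 6 Scramble KD libraries as the control, siRNA A was called as well (-0.24, adjusted p = 0.0113), beside siRNA B (-0.998, adjusted p = 5.72e-09).

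*Atf6* (ENSMUSG00000026663, chr1:170532026-170696208, minus strand) differed between siRNAs of the same target. It stood at 136, 165 and 163 CPM with Scramble siRNA A and 217, 221 and 264 with Scramble siRNA B, a difference between controls of 0.59 ± 0.09 (adjusted p = 6.37e-05). With the *Fmr1* siRNAs it was 200.01, 212 and 184 CPM (A) and 96.9, 95.6 and 98.04 CPM (B), so *Fmr1* siRNA A was above Scramble siRNA A (0.36 ± 0.09, adjusted p = 0.00543) and siRNA B below (-1.27 ± 0.09, adjusted p = 5.86e-09). The difference between these effects (log2 fold change -1.63 ± 0.13 SE, adjusted p = 2.14e-08) includes the difference between the Scramble siRNAs. Against all 6 Scramble KD libraries the log2 fold change was 0.06 with *Fmr1* siRNA A (adjusted p = 0.591) and -0.97 with siRNA B (adjusted p = 6.01e-08). With the *Zfp598* siRNAs it was 128, 122 and 124 CPM (A) and 155, 159.6 and 166 CPM (B), lower than the same-letter Scramble siRNA with both (-0.32 ± 0.09, adjusted p = 0.0256, and -0.54 ± 0.09, adjusted p = 0.000128), while the pooled value was not called (-0.45 ± 0.20, adjusted p = 0.248). *Atf6b* (ENSMUSG00000015461, chr17:34866091-34874056, plus strand), its paralog, was lower with both *Zfp598* siRNAs, -0.30 ± 0.09 with A (adjusted p = 0.0453) and -0.56 ± 0.09 with B (adjusted p = 0.000153). Its level was 63.3, 59.9 and 67.3 CPM with Scramble siRNA A and 46.9, 54.2 and 55.3 with *Zfp598* siRNA A. The B siRNAs gave 52.8, 53.5 and 59.4 CPM (Scramble) and 35.7, 40.8 and 35.4 (*Zfp598*).

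The ERAD genes moved less in *Fmr1* KD. *Sel1l* (ENSMUSG00000020964, chr12:91772799-91815982, minus strand), the adaptor of the HRD1 ligase complex, was the only 1 of the 8 called, at 201 to 243 CPM (median 219.7) in Scramble KD and 136 to 183 CPM (median 168) in *Fmr1* KD, without overlap (log2 fold change -0.41 ± 0.09 SE, adjusted p = 0.00844). The ligase gene *Syvn1* (HRD1) was at -0.19, and *Derl1*, *Derl2* and *Derl3*, of the derlin channel family, at -0.17, -0.13 and 0.17, none of them called. *Edem2* was the exception between the tests: its 6 *Fmr1* KD libraries, at 38.7 to 41.9 CPM (median 40.01), lay below all 6 Scramble KD libraries, at 42.9 to 51.9 CPM (median 48.03), yet the model across all 18 libraries did not call it (log2 fold change -0.26 ± 0.19 SE, adjusted p = 0.464), and in *Zfp598* KD it ranged from 31.3 to 94.99 CPM. *Edem1* (ENSMUSG00000030104, chr6:108805457-108838955, plus strand), a mannosidase-like factor that marks glycoproteins for ERAD, stood at 91.2, 85.9 and 92.1 CPM with *Fmr1* siRNA A and 141, 163 and 173 with *Fmr1* siRNA B, against 139.9 to 188 CPM (median 151) in Scramble KD. With the *Zfp598* siRNAs it was 177, 231 and 289.8 CPM (A) and 196, 199.7 and 216 CPM (B). It was thus low with *Fmr1* siRNA A (-0.90 ± 0.13, adjusted p = 4.01e-05) and higher than the same-letter Scramble siRNA with both *Zfp598* siRNAs (0.46 ± 0.13, adjusted p = 0.0268, and 0.44 ± 0.13, adjusted p = 0.0176). *Derl1* (ENSMUSG00000022365, chr15:57731819-57755879, minus strand) was lower with both *Zfp598* siRNAs (-0.27 ± 0.07 and -0.21 ± 0.07), at 141 to 169.6 CPM (median 161) against 176 to 198 CPM (median 184) in Scramble KD. *Selenok*, a selenoprotein of the ERAD machinery, had the smallest adjusted p of the group between the Scramble siRNAs, 74.3, 72.5 and 70.95 CPM with A and 47.5, 46.99 and 42.00 with B (log2 fold change -0.68 ± 0.09 SE, adjusted p = 1.01e-05).

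In the translocon, *Ssr1* (ENSMUSG00000021427, chr13:38149556-38178224, minus strand), a subunit of the translocon-associated protein complex, was the only 1 of 7 called in *Fmr1* KD, with 140.00 to 154 CPM (median 143) in Scramble KD and 108 to 125 CPM (median 118) in *Fmr1* KD (log2 fold change -0.31 ± 0.09 SE, adjusted p = 0.0479). The groups did not overlap, but this call was the closest to the threshold among the 15. *Ssr2* (ENSMUSG00000041355, chr3:88483056-88497417, plus strand) was lower with both *Zfp598* siRNAs. It stood at 42.6, 49.3 and 49.1 CPM with siRNA A against 62.8, 64.5 and 72.5 with Scramble siRNA A, and at 36.2, 39.5 and 43.4 CPM with siRNA B against 43.1, 55.4 and 56.5 (-0.51 ± 0.12, adjusted p = 0.00836, and -0.38 ± 0.12, adjusted p = 0.0245). *Sec61b* (ENSMUSG00000053317, chr4:47474614-47483864, plus strand), a small subunit of the SEC61 channel, stood at 30.5, 17.95 and 24.2 CPM with Scramble siRNA A, 12.97, 11.3 and 13.5 with Scramble siRNA B, 23.7, 26.2 and 29.97 with *Fmr1* siRNA A and 23.3, 26.4 and 31.5 with *Fmr1* siRNA B. The *Fmr1* siRNAs gave nearly the same level, and the call with siRNA B (1.11 ± 0.16, adjusted p = 3.46e-05) came with the low level of Scramble siRNA B (-0.94 ± 0.16 against Scramble siRNA A, adjusted p = 0.000220). With all 6 Scramble KD libraries as the control, *Sec61b* was called higher with *Fmr1* siRNA A (0.61, adjusted p = 0.00142) and with siRNA B (0.64, adjusted p = 0.00163). *Sec61a1*, the channel-forming subunit, stayed within 223 to 287 CPM over all 18 libraries. Its pooled log2 fold change was -0.06 ± 0.08 for *Fmr1* and -0.06 ± 0.08 for *Zfp598*. *Sec61g*, *Ssr3* and *Ssr4* were at -0.14, -0.25 and -0.05 in *Fmr1* KD, not called.

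In *Zfp598* KD the pooled comparison called 2 of 36 ER genes lower, *Calr* and *Pdia6*, and 0 higher. Over all genes tested, 1.04% fell and 0.916% rose. Of the positive values, *Edem1* alone had an unadjusted p under 0.05, and DESeq2 called 6 lower and 0 higher. The median log2 fold change of the ER genes was -0.16, against 0.01 over all genes, and 28 of 36 values were below 0. For 4 ER genes, *Calr*, *Pdia6*, *Ern1* and *Derl1*, all 6 *Zfp598* KD libraries lay below all 6 Scramble KD libraries, as for 1.11% of all genes. This separation again fixes the exact permutation test at its smallest p, 0.00216. Without the libraries that stood apart (*Fmr1* KD B1 and *Zfp598* KD A2 and A3, left out after seeing the data) 5 were called, *Atf6b* (adjusted p = 0.00617), *Ssr2* (0.0195) and *Ssr4* (0.0436) joining them. With counts summed per siRNA, 0 were called and 2 had an unadjusted p under 0.05. In *Fmr1* KD the 15 calls were kept without those libraries and *Ero1b* (adjusted p = 0.0365) joined them.

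*Fmr1* KD and *Zfp598* KD share the Scramble KD libraries, so the pair was also compared directly, a comparison added after seeing the data. In *Fmr1* KD 6 of 36 ER genes were lower than in *Zfp598* KD and 0 higher, against 3.11% lower and 2.27% higher over all genes. These were *Ero1a* (-1.22 ± 0.20, adjusted p = 0.00122), *Edem1* (-0.81 ± 0.17, adjusted p = 0.00673), *Dnajc3* (-0.63 ± 0.12, adjusted p = 0.00539), *Hsp90b1* (-0.52 ± 0.10, adjusted p = 0.00419), *Xbp1* (-0.37 ± 0.09, adjusted p = 0.0203) and *Canx* (-0.31 ± 0.09, adjusted p = 0.0466). *Calr* and *Pdia6*, lower in both KDs, did not pass (-0.23 ± 0.09 and -0.08 ± 0.09), and neither did *Hspa5* (-0.43 ± 0.19, adjusted p = 0.203). DESeq2 called 8 lower and 0 higher, and *Sec61b* was the single positive value with an unadjusted p under 0.05. With counts summed per siRNA, 0 were called and 4 had an unadjusted p under 0.05.

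The siRNAs were then taken singly, each against the same-letter Scramble siRNA in a model of 6 groups (19003 genes tested). *Fmr1* siRNA A lowered 17 ER genes and raised 2, *Atf6* and *Dnajb9*, against 12.7% and 9.35% of all genes. *Fmr1* siRNA B lowered 18 and raised 1, *Sec61b*, against 10.4% and 11%. Both *Fmr1* siRNAs lowered the same 10: *Hsp90b1*, *Dnajc3*, *Calr*, *Canx*, *Pdia4*, *Pdia6*, *Ero1a*, *Xbp1*, *Sel1l* and *Ssr1*, and 2.72% of all genes were lower with both. *Zfp598* siRNA A lowered 13 and raised 2, *Edem1* and *Edem2*, against 5.43% and 5.6% of all genes. *Zfp598* siRNA B lowered 12 and raised 3, *Hyou1*, *Edem1* and *Sec61b*, against 13.2% and 12%. Both *Zfp598* siRNAs lowered *Calr*, *Pdia6*, *Atf6*, *Atf6b*, *Derl1* and *Ssr2*, 6 of 36, against 1.09% of all genes. Some single calls depended on the fit. Of the 19 ER genes refitted under 25 alternatives, leaving out 1 library of the siRNA or of its control ended, at least once, the calls of *Sel1l* and *Ssr1* with *Fmr1* siRNA A and of *Pdia4* and *Ssr1* with siRNA B. The same held for *Hspa5*, *Pdia6*, *Xbp1*, *Atf6*, *Atf6b*, *Derl1* and *Edem1* with *Zfp598* siRNA A, and for *P4hb*, *Derl1*, *Edem1*, *Ssr2* and *Sec61b* with *Zfp598* siRNA B, at adjusted p values up to 0.183 (*Edem1*, without *Zfp598* A3). *Atf6b* with *Zfp598* siRNA A (adjusted p = 0.0453) lost its call in 19 of the 25 fits. Without the libraries that stood apart, *Zfp598* siRNA A kept only library A1. *Edem1* stood at 177 CPM there, within the 139.9 to 188 CPM of Scramble siRNA A. Against all 6 Scramble KD libraries, *Sec61b* with *Zfp598* siRNA B had an adjusted p of 0.840 and *Atf6* with *Fmr1* siRNA A 0.591. By that control the calls of *Pdia4* with *Fmr1* siRNA B (adjusted p = 0.115), *Atf6b* with *Zfp598* siRNA A (0.110) and *Derl1* with *Zfp598* siRNA B (0.0658) also ended. Calls were gained, all downward except *Sec61b*, for *Hspa5*, *Sec61b* and *Ern1* with *Fmr1* siRNA A and *Ssr2* and *P4hb* with siRNA B. With *Zfp598* siRNA A they were gained for *Hsp90b1*, *Dnajc3*, *Canx*, *Sel1l* and *Ern1*. The siRNAs with the same letter share a control, so these counts are not independent of each other.

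**Figure D4:**
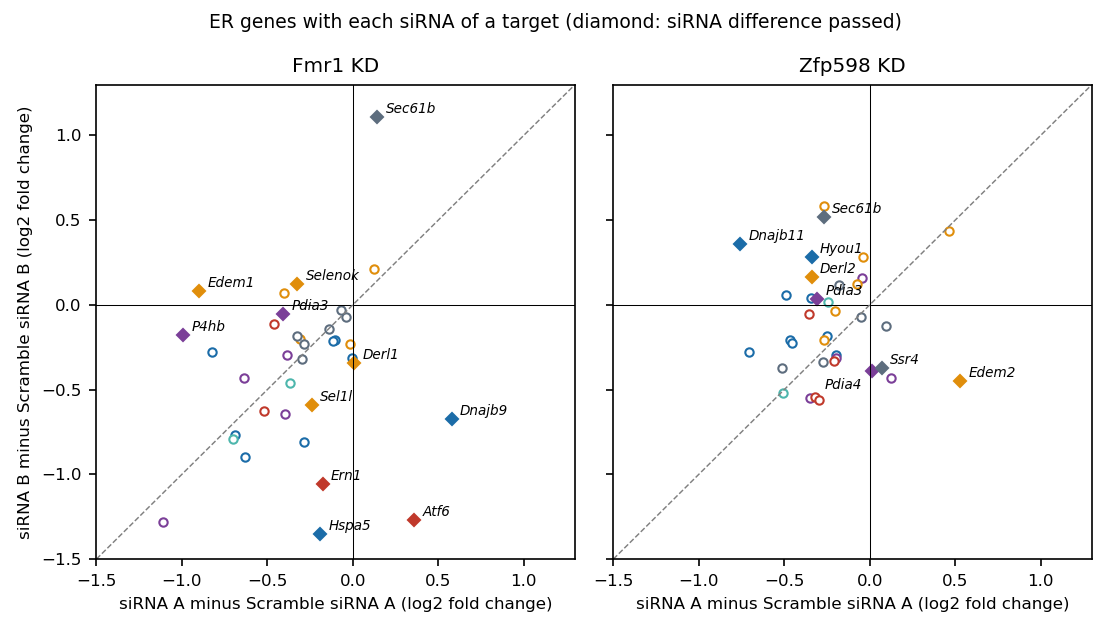
Each point is an ER gene, with the log2 fold change of siRNA A against Scramble siRNA A on the horizontal axis and of siRNA B against Scramble siRNA B on the vertical axis, for *Fmr1* (left) and *Zfp598* (right); the dashed line marks equal effects, colours give the role as in the plot of pooled log2 fold changes, and named diamonds had effects that differed between the siRNAs at an adjusted p under 0.05. *Ero1a* lies near the dashed line in the lower left of the *Fmr1* panel, while *Atf6*, *Hspa5*, *Ern1* and *Dnajb9* lie far below it.

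The effect of the *Fmr1* siRNAs differed for 11 of 36 ER genes (20.5% of all genes), and that of the *Zfp598* siRNAs for 8 (20.4% of all genes). The Scramble siRNAs themselves differed for 9 (21.1% of all genes), 5 lower and 4 higher with B. These shares, 30.6%, 22.2% and 25% of the ER genes, were closer to those over all genes than the share that fell in *Fmr1* KD. With the *Zfp598* siRNAs, *Dnajb11* stood at 29.2, 25.5 and 22.6 CPM with A and 47.4, 51.8 and 41.2 with B. Its effects against the same-letter Scramble siRNA differed by log2 fold change 1.11 ± 0.20 SE (adjusted p = 0.000459). That value includes the difference between the Scramble siRNAs (-0.26 ± 0.14, not called), so it is not the fold change between the 2 levels. *Hyou1* was split in the same direction, 270.3, 328 and 332 CPM with A and 459.5, 487 and 479 with B (difference between effects 0.62 ± 0.14 SE, adjusted p = 0.00412). *Edem2* was split in the opposite direction, 57.4, 62.1 and 94.99 CPM with A and 31.3, 35.2 and 36.9 with B (difference between effects -0.98 ± 0.19 SE, adjusted p = 0.000871). Over all 6 siRNAs, 32 of 36 ER genes differed in some way, as did 60.5% of all genes, and the exceptions were *Syvn1*, *Sec61g*, *Derl3* and *Creld2*. The lowest mean of the 6 siRNAs was that of *Fmr1* siRNA A for 10 ER genes (17.4% of all genes), *Fmr1* siRNA B for 9 (12.1%), *Zfp598* siRNA A for 7 (21.9%), *Zfp598* siRNA B for 6 (19.3%), Scramble siRNA B for 4 (16.1%) and Scramble siRNA A for 0 (13.2%).

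Beyond the 36, 94 further genes of the pathway were followed from 4 lists, of which 92 were tested in the pooled comparisons. In *Fmr1* KD 13 of the 92 fell and 1 rose (median log2 fold change -0.15), where 3.8% of all genes fell and 2.73% rose. By list, 3 of 24 other folding factors fell, 1 of 20 other ERAD genes, 4 of 17 genes of the PERK branch and other sensors, and 5 of 31 genes of targeting, translocation and glycan transfer. The deepest falls were *Trib3* (-1.10 ± 0.19, adjusted p = 0.00153) and *Ddit3* (-0.90 ± 0.22, adjusted p = 0.0153), targets of the PERK and ATF4 branch, and *Cdnf* (-0.98 ± 0.24, adjusted p = 0.0176), a relative of *Manf*. The gene that rose was *Srp14* (0.60 ± 0.17, adjusted p = 0.0351), of the signal recognition particle. *Atf4* (-0.37 ± 0.16, adjusted p = 0.174) and *Eif2ak3*, which encodes PERK (-0.33 ± 0.11, adjusted p = 0.0778), were not called. In *Zfp598* KD, where 1.04% of all genes fell and 0.916% rose, 3 of the 92 fell, *Ddit3* (-0.83 ± 0.22, adjusted p = 0.0480), *Nfe2l1* (-0.41 ± 0.09, adjusted p = 0.0183) and the signal peptidase subunit *Spcs3* (-0.40 ± 0.09, adjusted p = 0.0310), and 0 rose.

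Of 18 genes of the PERK branch and other sensors, 5 had effects that differed between the *Fmr1* siRNAs, 4 lower and 1 higher with B, where 20.5% of all genes differed. *Ddit3*, which encodes CHOP, had a log2 fold change of -0.23 ± 0.12 with *Fmr1* siRNA A (adjusted p = 0.187) and -1.80 ± 0.12 with siRNA B (adjusted p = 3.53e-09), and these effects differed (-1.57 ± 0.17, adjusted p = 1.38e-06). *Ppp1r15a*, the phosphatase subunit GADD34, rose with *Fmr1* siRNA A (0.59 ± 0.17) and fell with siRNA B (-1.61 ± 0.18), a difference of -2.20 ± 0.25 (adjusted p = 2.66e-06). *Trib3* fell with both (-0.59 ± 0.16, adjusted p = 0.0102, and -1.66 ± 0.16, adjusted p = 3.61e-07). With *Fmr1* siRNA A, *Creb3l2* (-0.91) and *Sil1* (-0.91) of the 4 lists were among those that fell, and *Wfs1* (0.64) and *Srp14* (0.97) rose most. With *Fmr1* siRNA B, *Fkbp14* (1.13), *Selenos* (0.70) and *Dnajc10* (0.48) rose. With *Zfp598* siRNA A, *Chac1* (-0.62), *Ddit3* (-0.56) and *Nfe2l1* (-0.52) fell most and *Srp14* (0.92), *Fkbp7* (0.84) and *Kdelr3* (0.69) rose most. With *Zfp598* siRNA B, *Sil1* (-1.47), *Pdia5* (-1.28) and *Ddit3* (-1.09) fell most and *Selenos* (0.85), *Bcl2l11* (0.61) and *Ngly1* (0.54) rose most.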

How the data were processed

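N2A RNA-seq libraries (18, 3 for each of 6 siRNAs) were grouped by the siRNA and replicate in their labels. Reads were trimmed (TrimGalore), aligned (STAR, GRCm39) and assigned to exons of genes (featureCounts) by the authors. The deposited counts are raw whole numbers for each gene and library. Annotation release, strand setting and treatment of multi-mapped reads are not given in the sources used here. No column was left unused.

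From the deposited counts, filterByExpr (minimum count 10, minimum total 15) kept 17901 of 55414 genes for the model of 3 conditions, with no other term, and 19003 for the model of 6 siRNAs. Quasi-likelihood tests (glmQLFit, glmQLFTest) were run in edgeR 4.0.16 (R 4.3.3, limma 3.58.1) after TMM scaling, on all 18 libraries, adjusted by Benjamini-Hochberg over every gene tested, and called at an adjusted p under 0.05. Standard errors (SE) were derived from the quasi-likelihood test, as the absolute log2 fold change divided by the square root of its F statistic. Exact permutation tests used log2(CPM + 0.5). Coordinates and overlaps came from GENCODE M39 on GRCm39. Where a symbol named more than a single entry, as for *Ddit3*, the entry with the longer exons was used. Promoter windows came from RefSeq. The result of 1 gene of the pathway lists is not reported here. Alternatives were RLE size factors, no filter, a siRNA letter term, a replicate block, counts summed per siRNA, DESeq2 1.42.0, a 1.5-fold criterion, the most counted feature removed and each library left out. The models were tested on simulated counts, with each library drawn independently. For the model of 3 conditions the simulated siRNAs of a condition did not differ, so its false calls do not cover the spread between siRNA sequences. In the data, 21.1% of all genes differed between the Scramble siRNAs. The model of 3 conditions called 75 of 100 genes changed 2-fold and 38 of 100 changed 1.5-fold, with 5 false calls. The model of 6 siRNAs called 66 and 44, with 4 false calls. A gene not called may thus still have changed by such an amount.

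The 36 genes and the pathway lists were chosen with earlier results of these data known. The named genes are the 36 members, the siRNA targets and, from the pathway lists, up to 3 deepest falls and rises per comparison. *Atf4*, *Eif2ak3*, the pathway genes repeated across comparisons, the marker genes and the further genes with the promoter element are outside that rule and were named after values were seen. No 2 libraries of the same siRNA agreed within counting noise (lowest chi-square 2.80 per degree of freedom). The value was 29.1 to 141 between the libraries of *Zfp598* siRNA A and 6.50 to 38.3 between those of Scramble siRNA A. With the other siRNAs it was at most 12.5.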

Additional observations from a re-analysis of the deposited data

Results flagged for a closer look

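Among 108 sets of 6 libraries, of which chance marks about 1 in 20, 4 had an extreme library. *Manf* stood at 60.9 CPM in Scramble KD replicate B3 (next 43.3) and *Calr* at 493 CPM in the same library (next 398). In *Zfp598* KD replicate A3, *Creld2* stood at 25.4 CPM (next 17.99) and *Calr* at 237 CPM (next 274).

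The effect of an siRNA against *Fmr1*, B minus A on the log2 scale, differed for 11 ER genes by the interaction term of the 6-siRNA model in edgeR. Here an effect is the change against the same-letter Scramble siRNA, not a level. It was lower with B for *Hspa5* (-1.16, adjusted p = 7.36e-05), *Dnajb9* (-1.25, adjusted p = 0.000363), *Atf6* (-1.63, adjusted p = 2.14e-08), *Ern1* (-0.88, adjusted p = 6.82e-06), *Sel1l* (-0.35, adjusted p = 0.0312), *Derl1* (-0.35, adjusted p = 0.0134). It was higher with B for *Pdia3* (0.35, adjusted p = 0.0404), *P4hb* (0.81, adjusted p = 4.03e-05), *Edem1* (0.98, adjusted p = 0.000639), *Selenok* (0.45, adjusted p = 0.0119), *Sec61b* (0.96, adjusted p = 0.00318).

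For *Zfp598* the effects differed for 8 ER genes, lower with B for *Pdia4* (-0.40, adjusted p = 0.0399), *Edem2* (-0.98, adjusted p = 0.000871), *Ssr4* (-0.44, adjusted p = 0.0251) and higher with B for *Hyou1* (0.62, adjusted p = 0.00412), *Dnajb11* (1.11, adjusted p = 0.000459), *Pdia3* (0.34, adjusted p = 0.0465), *Derl2* (0.50, adjusted p = 0.0207), *Sec61b* (0.78, adjusted p = 0.0185). Both interaction terms subtract the same difference between the Scramble siRNAs, which was itself called for 5 of the 11 genes (*Hspa5*, *Atf6*, *Pdia3*, *Selenok* and *Sec61b*) and 2 of the 8. The *Selenok* level was 49.4 CPM with *Fmr1* siRNA B and 58.0 with A, so its higher effect with B goes with a lower Scramble siRNA B (-0.68 ± 0.09, adjusted p = 1.01e-05). *Pdia3* and *Sec61b* were in both sets and were lower with Scramble siRNA B than with A (-0.33 ± 0.08, adjusted p = 0.00763, and -0.94 ± 0.16, adjusted p = 0.000220).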

How the results depend on the processing

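Counts are ER genes called of 36. In *Fmr1* KD (15) they were 0 with counts summed per siRNA and 5 beyond 1.5-fold. In *Zfp598* KD (2) they were 4 with the siRNA letter as a term, 0 summed per siRNA, 6 with DESeq2, 5 without the libraries that stood apart and 0 beyond 1.5-fold. Beyond 1.5-fold they were 8 of 19 with *Fmr1* siRNA A, 2 of 15 with *Zfp598* siRNA A, 0 of 15 with *Zfp598* siRNA B, 5 of 9 between the Scramble siRNAs, and 7 of 11 and 4 of 8 for the siRNA differences of *Fmr1* and *Zfp598*. The *Zfp598* siRNA difference gave 5 with no filter. Without the libraries that stood apart, *Zfp598* siRNA A kept only library A1, so no count is given for it. *Fmr1* KD against *Zfp598* KD (6) gave 0 summed per siRNA and 3 beyond 1.5-fold. Of the other tests on single genes, 38 lost and 30 gained a call outside the fits with a library left out, and none reversed. Summing leaves fewer samples and also makes the spread between siRNAs the error of the test, and these cannot be told apart here. The 1.5-fold criterion is stricter by design. The causes of the other changes were not tested.

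Leaving out each library gave 10 to 15 calls in *Fmr1* KD (10 without Scramble B3), 2 to 4 in *Zfp598* KD (4 without *Zfp598* A1), 16 to 21 and 16 to 20 with *Fmr1* siRNA A and B, 7 to 17 with *Zfp598* siRNA A (7 without Scramble A2, Scramble A3 or *Zfp598* A2, 8 without Scramble A1), 8 to 17 with *Zfp598* siRNA B (8 without Scramble B2 or *Zfp598* B1), 6 to 11 between the Scramble siRNAs (6 without Scramble A3), 9 to 14 and 4 to 11 for the siRNA differences of *Fmr1* and *Zfp598* (4 without *Zfp598* B1) and 4 to 8 between the KDs (4 without *Fmr1* B1). Leaving out *Fmr1* siRNA B libraries ended the *Hspa5* call each time (adjusted p = 0.0548 to 0.057).

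Replicate numbers gave no consistent pairing of the libraries. Correlations of same-numbered deviations had both signs for number 1 (-0.40 to 0.26) and number 2 (-0.19 to 0.34). For number 3 they were all weakly positive (0.05 to 0.27). A replicate block gave 12 calls in *Fmr1* KD, 2 in *Zfp598* KD, 21 and 19 with *Fmr1* siRNA A and B, 16 and 15 with *Zfp598* siRNA A and B, 10 between the Scramble siRNAs, and 12 and 9 for the siRNA differences. Counting depth limited *Derl3*, at 15 to 56 reads per library.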
